A study of Mus musculus with 12 samples.

Results

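The genes described here are 8 markers of arterial and venous identity in brain endothelium: *Gja4*, *Gja5*, *Bmx*, *Gkn3* and *Mgp* for arteries, and *Nr2f2*, *Vwf* and *Ackr1* for veins. They were chosen by name, as genes known to mark the vessel types, but with earlier results of these data known. They are 8 of the 49315 genes in the count files. All 8 had enough reads to be tested, among 16637 genes that passed the filter on low counts.

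Arteries and veins carry different endothelial programs, which are set early in the embryo. Notch signaling and SOX factors drive the arterial program, whereas the nuclear receptor COUP-TFII, the product of *Nr2f2*, promotes the venous program and represses Notch components. In the brain, both ends of the vascular tree are joined by a capillary bed in which canonical WNT signaling, received in endothelium with the help of the adhesion receptor GPR124, supports vessel growth and barrier properties.

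RNA-seq was performed on CD31+ endothelial cells that had been sorted from mouse embryo forebrains at E15.5, with CD140b+ mural cells, CD45+ blood cells and dead cells gated out. There were 4 libraries of each of 3 genotypes, 12 in all: WT, Gpr124deltaC/deltaC and Gpr124-/-. In Gpr124deltaC, CRISPR/Cas9 placed a V5 tag and a stop codon after the last transmembrane domain, so that the receptor lacks its intracellular domain. The study also reports less of this protein than of the wild-type receptor, at the cell surface and in total, at similar mRNA levels. Loss of the domain and a lower receptor level therefore cannot be told apart in this genotype. In Gpr124-/- both copies are a *lacZ* knockout allele. Both alleles are germline changes carried by every cell of the embryo, not only by endothelium, and the homozygotes came from intercrosses of heterozygous parents. Library values are given in the order JE1, JE6, KE8 and LE6 for WT, JE3, JE4, LE2 and LE5 for Gpr124deltaC/deltaC, and KE4, ME1, ME4 and ME5 for Gpr124-/-, which are the embryo labels of replicates 1 to 4. The meaning of the first letter of these labels is not given, and the letter M occurs in Gpr124-/- only.

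Library totals ran from 13877572 to 22551163 counted reads. *Gpr124*, listed as *Adgra2*, had a mean of 4.86 TPM in Gpr124-/- against 38.6 TPM in WT and 43.4 TPM in Gpr124deltaC/deltaC (TPM, a level corrected for gene length and scaled to one total per library). The 10 endothelial markers, among them *Pecam1*, *Cdh5* and *Kdr*, summed to 5584 to 6977 TPM in WT, 4887 to 7425 in Gpr124deltaC/deltaC and 5766 to 7063 in Gpr124-/-, and 0 of the 10 were called in any comparison by edgeR or DESeq2, although 5 passed the adjusted p in Gpr124-/- against WT: *Cdh5* at 0.74, *Robo4* at 0.69 and *Pecam1* at 0.54 were higher and *Tek* at -0.73 and *Erg* at -0.41 lower on the log2 scale. These differences are of a size with those of *Gja4* and *Vwf* given later. The 4 lymphatic markers stayed between 2.1 and 7.77 TPM in sum and the 11 mural markers between 13.8 and 44.3 TPM, with *Abcc9* called higher (2.66 on the log2 scale, adjusted p = 0.000327) and *Rgs5* lower (-1.47, adjusted p = 0.0186) in Gpr124-/- against WT. The 5 markers of neural progenitors summed to 101 to 128 TPM in WT and 134 to 164 TPM in Gpr124-/-, with single-gene log2 fold changes from 0.07 to 0.68 that did not pass the test, and of 6 neuron markers *Stmn2* was called higher in Gpr124-/-. The 7 macrophage markers summed to 11.2 to 17.1 TPM in WT and 36 to 68.9 TPM in Gpr124-/-, nearly all of it *Fcer1g*, while *Ptprc*, which encodes CD45, was at or near 0. The short RNA gene *Gm23935* took 12.459% of the TPM of JE6 and 14.122% of JE3, against 1.221% to 3.036% in the other libraries and TPM computed without it left every mean of the 8 genes relative to WT within the spread of the libraries.

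In WT, *Gja4* was by far the most abundant of the 8 transcripts, with a mean of 1198 TPM, and only 73 of the tested genes had a higher mean. It encodes connexin 37, a gap junction protein of arterial endothelium. *Vwf*, the clotting factor that endothelium stores in Weibel-Palade bodies, followed at 94 TPM. *Gja5* (33.5 TPM), *Ackr1* (33 TPM), *Mgp* (21.2 TPM), *Nr2f2* (13.7 TPM), *Bmx* (10.7 TPM) and *Gkn3* (5.91 TPM) came next. Ranges over the 4 WT libraries did not overlap between *Gja4* and *Vwf*, between *Vwf* and *Gja5*, or between *Bmx* and *Gkn3*, whereas the neighbors from *Gja5* down to *Bmx* overlapped with each other and were not separated by the spread of the libraries. Because TPM divides by the summed exon length of all annotated transcripts, which is 16064 bases for *Vwf* with 11 transcripts and 856 bases for *Gkn3*, the order also depends on the annotation.

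The genes differed in which genotypes separated. In Gpr124-/- the venous gene *Ackr1* fell to 0.249 of its WT mean and the arterial gene *Gja5* rose to 2.11 of its WT mean, while *Gja4* was 0.613 of WT and *Vwf* 1.83 of WT. In Gpr124deltaC/deltaC the means of *Ackr1* and *Gja4* were 0.406 and 0.643 of WT, and *Gja5* and *Vwf* were at 1.22 and 0.994. *Nr2f2*, *Bmx*, *Gkn3* and *Mgp* did not pass the test in either mutant. No direction was shared by all genes of the arterial or of the venous set.

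**Figure D1:**
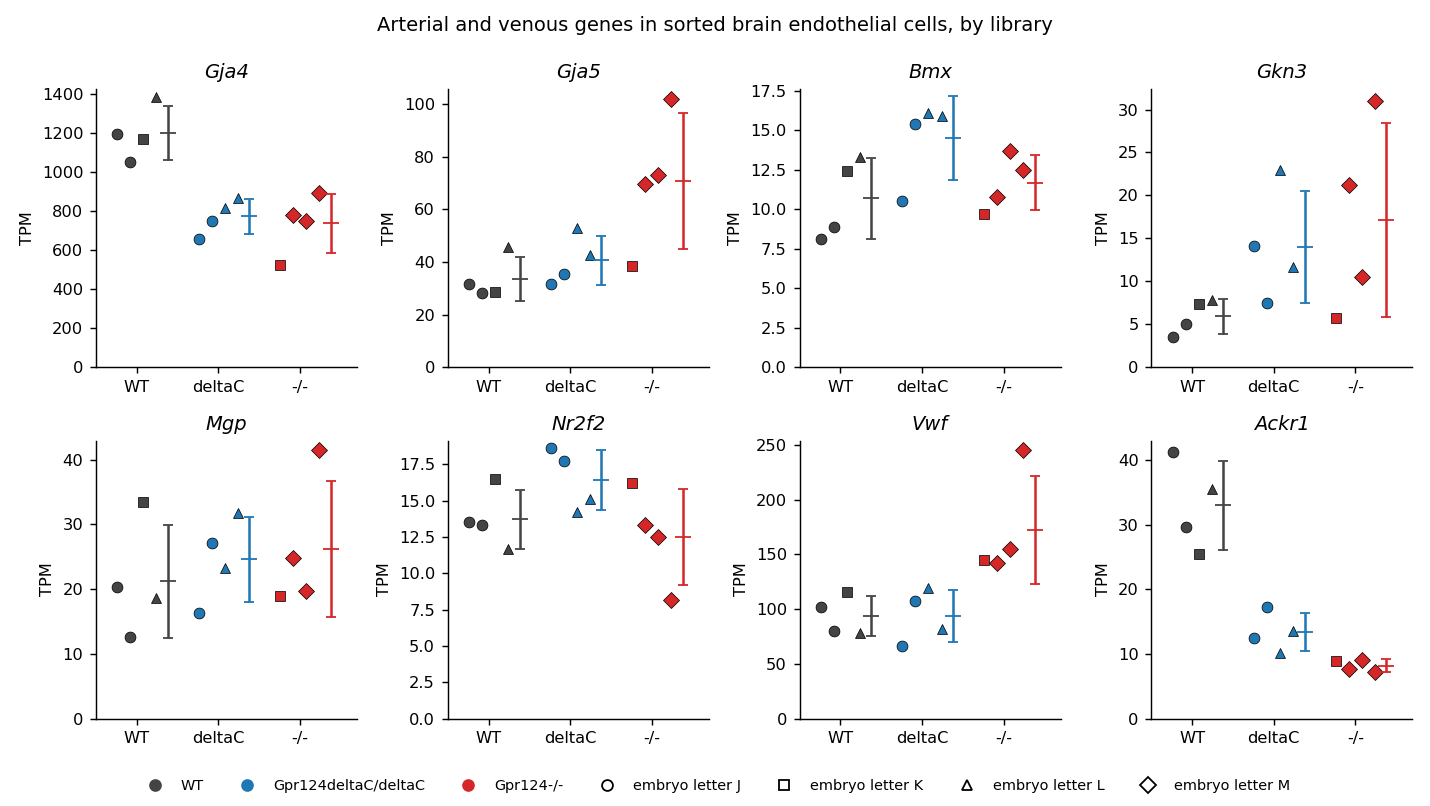
TPM of the 8 genes (vertical axes, linear, from 0) in the 4 libraries of each genotype (points, whose shape gives the opening letter of the embryo name), with the mean and SD at the right of each group. The 4 Gpr124-/- libraries lie between 7.23 and 9.14 TPM for *Ackr1*, below all Gpr124deltaC/deltaC libraries, which lie below all WT libraries.

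The 5′ flanks of *Ackr1*, *Gja4*, *Nr2f2* and *Gja5* are shown because *Ackr1* and *Gja4* were lower in both mutants, *Nr2f2* is the venous regulator, and *Gja5* is the second arterial connexin gene. Each line gives the 250 bases before the RefSeq start in GRCm38.p6, on the strand of the gene, and capitals mark a match to one of 4 motifs searched on both strands.
Ackr1: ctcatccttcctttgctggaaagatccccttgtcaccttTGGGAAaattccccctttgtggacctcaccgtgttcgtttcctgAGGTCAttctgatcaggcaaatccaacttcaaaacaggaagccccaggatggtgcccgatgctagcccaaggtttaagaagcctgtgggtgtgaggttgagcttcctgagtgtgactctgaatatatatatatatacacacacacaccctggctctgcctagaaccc
Gja4: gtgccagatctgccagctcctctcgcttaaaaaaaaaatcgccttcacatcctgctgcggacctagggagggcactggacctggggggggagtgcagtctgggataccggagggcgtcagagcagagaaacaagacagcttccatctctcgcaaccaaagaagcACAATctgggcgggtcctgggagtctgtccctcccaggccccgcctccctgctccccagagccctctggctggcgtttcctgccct
Nr2f2: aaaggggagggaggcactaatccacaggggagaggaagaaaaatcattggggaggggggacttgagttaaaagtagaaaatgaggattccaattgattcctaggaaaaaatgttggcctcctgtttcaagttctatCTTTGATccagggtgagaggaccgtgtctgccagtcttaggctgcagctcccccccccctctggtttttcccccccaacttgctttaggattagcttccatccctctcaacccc
Gja5: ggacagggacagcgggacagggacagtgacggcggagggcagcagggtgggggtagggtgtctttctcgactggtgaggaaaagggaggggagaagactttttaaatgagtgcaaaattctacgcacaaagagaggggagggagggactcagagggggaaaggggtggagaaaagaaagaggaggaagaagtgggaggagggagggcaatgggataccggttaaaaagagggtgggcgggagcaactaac
These lie at chr1:173333504-173333753 (minus strand), chr4:127314040-127314289 (minus strand), chr7:70366747-70366996 (minus strand) and chr3:97032152-97032401 (plus strand). The motifs were the TCF/LEF core (CTTTGAT or CTTTGAA), through which WNT signaling acts, the core of the Notch effector RBPJ (TGGGAA), the SOX core (ACAAT) and the nuclear receptor core (TGACCT), and no match overlaps another in these flanks. The window searched ran from 250 bases before to 50 after the start, for the 6 genes with a promoter in the RefSeq table, which leaves out *Mgp* and *Vwf*. *Nr2f2* held the TCF/LEF core at -114 from the start. *Ackr1* held the RBPJ core at -211 and the nuclear receptor core, on the opposite strand, at -167, and *Gja4* held the SOX core at -86. *Gja5* and *Gkn3* held none of the 4, while *Bmx* held the RBPJ core at -178 and the SOX core at -52, -32 and 43. Such matches are frequent by themselves, since the TCF/LEF core was found in 8.65%, the RBPJ core in 25.6%, the SOX core in 31% and the nuclear receptor core in 16.3% of 32851 promoters of the same length. A match is a description of the letters, not a binding site. The start of *Ackr1* in RefSeq lies inside the gene as annotated in the count files, and that of *Gja5* lies far inside its annotated span.

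*Ackr1* encodes the atypical chemokine receptor of venules and was lower than WT in both mutants. It lies on chromosome 1 from 173331886 to 173333750, on the minus strand. Its levels were 41.3, 29.7, 25.5 and 35.5 TPM in WT, 12.5, 17.3, 10.2 and 13.6 TPM in Gpr124deltaC/deltaC, and 8.86, 7.61, 9.14 and 7.23 TPM in Gpr124-/-. The ranges of the 3 genotypes did not overlap, in the order WT, Gpr124deltaC/deltaC, Gpr124-/-. Means were 33 ± 6.88, 13.4 ± 2.97 and 8.21 ± 0.934 TPM (SD, n = 4 each). The log2 fold change against WT was -2.05 in Gpr124-/- (SE 0.20, 95% interval -2.48 to -1.62, adjusted p = 1.13e-05, from the quasi-likelihood test of edgeR, adjusted by Benjamini-Hochberg over all tested genes, as every adjusted p here). In Gpr124deltaC/deltaC it was -1.37 (SE 0.19, -1.79 to -0.95, adjusted p = 0.00129). *Ackr1* therefore fell in both mutants, and its fold change was the largest in size among the 8 genes in either mutant. The difference between the mutants was -0.68 (SE 0.20, -1.11 to -0.25, adjusted p = 0.0534), which missed the threshold although the ranges did not overlap, and with the label letter as a term it was -0.11 (adjusted p = 0.991).

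*Ackr1* was called in all 23 alternatives in both comparisons with WT, including the fit with the label letter as a term, where the Gpr124-/- value was -1.57 (adjusted p = 0.013). Within the letter J, with 2 libraries per genotype, Gpr124deltaC/deltaC was lower by -1.29 on the log2 CPM scale, and within L by -1.68 (2 libraries against 1). Within K, the single Gpr124-/- library was at 8.86 TPM and the single WT library at 25.5 TPM. *Ackr1* is also known from red cells. The 10 erythroid genes summed to 7083 to 11843 TPM in WT, 5465 to 9949 in Gpr124deltaC/deltaC and 17841 to 54455 in Gpr124-/-. Of the 9 that were tested, 5 rose in Gpr124-/- against WT (median 1.59) and, with a median of -0.34, 0 were called in Gpr124deltaC/deltaC by edgeR or DESeq2, with 0 at an unadjusted p under 0.05. Once the label letter was a term, 0 of the erythroid genes were called in Gpr124-/-, where edgeR without it called 5. The fit with the letter called 495 of all tested genes higher and takes its Gpr124-/- difference from KE4 and KE8. Their erythroid sums were 25251 and 11066 TPM. The part of red cell RNA in *Ackr1* was not tested. The gene shares 361 exonic bases with *Cadm3* on the same strand, which had 2 to 19 counts per library against 57 to 452 for *Ackr1*. In sorted bulk RNA, fewer cells of a vessel type and less of a transcript per cell cannot be told apart, for *Ackr1* or for any other gene here.

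*Nr2f2* encodes COUP-TFII and is the only transcription factor among the 3 venous genes. It lies on chromosome 7 from 70351944 to 70366735, on the minus strand. Levels were 13.5, 13.3, 16.5 and 11.7 TPM in WT, 18.6, 17.7, 14.2 and 15.1 TPM in Gpr124deltaC/deltaC, and 16.2, 13.3, 12.5 and 8.15 TPM in Gpr124-/-. All 3 ranges overlapped, and the lowest and highest libraries lay in the mutants. Against WT, the log2 fold change was -0.18 in Gpr124-/- (95% interval -0.61 to 0.24, adjusted p = 0.585) and 0.19 in Gpr124deltaC/deltaC (-0.23 to 0.62, adjusted p = 0.798). A 2-fold change in either direction lies outside both intervals. On the opposite strand it shares 643 exonic bases with *B130024G19Rik*, which had 57 to 135 counts, and reads there cannot be assigned to a strand if counting ignored it.

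*Vwf* lies on chromosome 6 from 125546774 to 125686679, on the plus strand, and is made by platelets as well as by endothelium. Levels were 102, 80, 116 and 77.8 TPM in WT, 66.6, 107, 119 and 81.6 TPM in Gpr124deltaC/deltaC, and 145, 142, 155 and 245 TPM in Gpr124-/-. WT and Gpr124deltaC/deltaC overlapped, and every Gpr124-/- library lay above both. Against WT the log2 fold change in Gpr124-/- was 0.84 (SE 0.20, 95% interval 0.40 to 1.28, adjusted p = 0.0106), short of the fold-change threshold of 1, and in Gpr124deltaC/deltaC it was -0.10 (-0.54 to 0.34, adjusted p = 0.93). The difference between the mutants was itself 0.94 (SE 0.20, 0.50 to 1.38, adjusted p = 0.0134). With the label letter as a term the Gpr124-/- value was 0.28 (adjusted p = 0.817), an estimate that rests on KE4 and KE8, at 145 and 116 TPM.

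*Gja4* lies on chromosome 4 from 127311421 to 127314039, on the minus strand. Levels were 1195, 1049, 1168 and 1380 TPM in WT, 657, 747, 813 and 866 TPM in Gpr124deltaC/deltaC, and 524, 780, 746 and 889 TPM in Gpr124-/-. Every library of either mutant lay below every WT library, and the mutants overlapped. The log2 fold change against WT was -0.74 in Gpr124-/- (SE 0.15, 95% interval -1.05 to -0.42, adjusted p = 0.00303) and -0.72 in Gpr124deltaC/deltaC (SE 0.15, -1.03 to -0.40, adjusted p = 0.0129). Both values passed the adjusted p and were short of the fold-change threshold. Between the mutants the difference was -0.02 (-0.33 to 0.30, adjusted p = 0.956). Within the letter J the Gpr124deltaC/deltaC libraries were at -0.73 against WT on the log2 CPM scale, within L at -0.82, and within K the Gpr124-/- library was at -1.20. In 2 of the 23 alternatives, limma on log2(TPM + 1) without a filter and the fit without JE6 and JE3, the Gpr124deltaC/deltaC value did not pass, with an adjusted p of up to 0.109.

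*Gja5*, which encodes connexin 40, the other arterial connexin of this set, lies on chromosome 3 from 96904693 to 97077416, on the plus strand. Levels were 31.5, 28.1, 28.6 and 45.8 TPM in WT, 31.5, 35.6, 53 and 42.7 TPM in Gpr124deltaC/deltaC, and 38.5, 69.7, 73.2 and 102 TPM in Gpr124-/-. The 3 Gpr124-/- libraries with the letter M lay above all others, and KE4 lay within the WT range. The log2 fold change in Gpr124-/- was 1.06 (SE 0.26, 95% interval 0.50 to 1.61, adjusted p = 0.0103), which counts as a rise. In Gpr124deltaC/deltaC it was 0.19 (-0.36 to 0.74, adjusted p = 0.868), and the difference between the mutants was 0.86 (0.31 to 1.41, adjusted p = 0.0551). The call rests on single libraries: without KE8 the fold change was 0.99 and without ME5 0.82, both under the threshold of 1, and with the label letter as a term it was 0.38 (adjusted p = 0.536). *Gja5* shares 165 exonic bases with *Gpr89* on the opposite strand, which had 451 to 922 counts.

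Platelet genes were also higher in Gpr124-/-, as *Gja5* and *Vwf* were. The 7 platelet genes (*Pf4*, *Ppbp*, *Gp9*, *Itga2b*, *Gp1ba*, *Gp1bb* and *Gp6*) summed to 248 to 488 TPM in WT and 340 to 469 TPM in Gpr124deltaC/deltaC. In Gpr124-/- the sums were 521 TPM in KE4, 1557 in ME1, 1123 in ME4 and 1541 in ME5. Of the 7, 6 rose in Gpr124-/- against WT, with a median log2 fold change of 2.01, and 0 were called in Gpr124deltaC/deltaC by edgeR or DESeq2 (0 at an unadjusted p under 0.05), whose median was 0.24. With the label letter as a term, 0 of the 7 were called in Gpr124-/-, where 495 of all tested genes were called higher. That fit takes the difference from KE4 and KE8, whose platelet sums were 521 and 248 TPM. KE4, the Gpr124-/- library with the smallest platelet sum, also had the lowest *Gja5* of its genotype, while its *Vwf* of 145 TPM exceeded all WT and Gpr124deltaC/deltaC libraries. ME1, with the largest platelet sum, had the lowest *Vwf* of its genotype, 142 TPM, and less *Gja5* than ME4. The part of platelet RNA in the values of *Gja5* and *Vwf* was not tested.

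**Figure D2:**
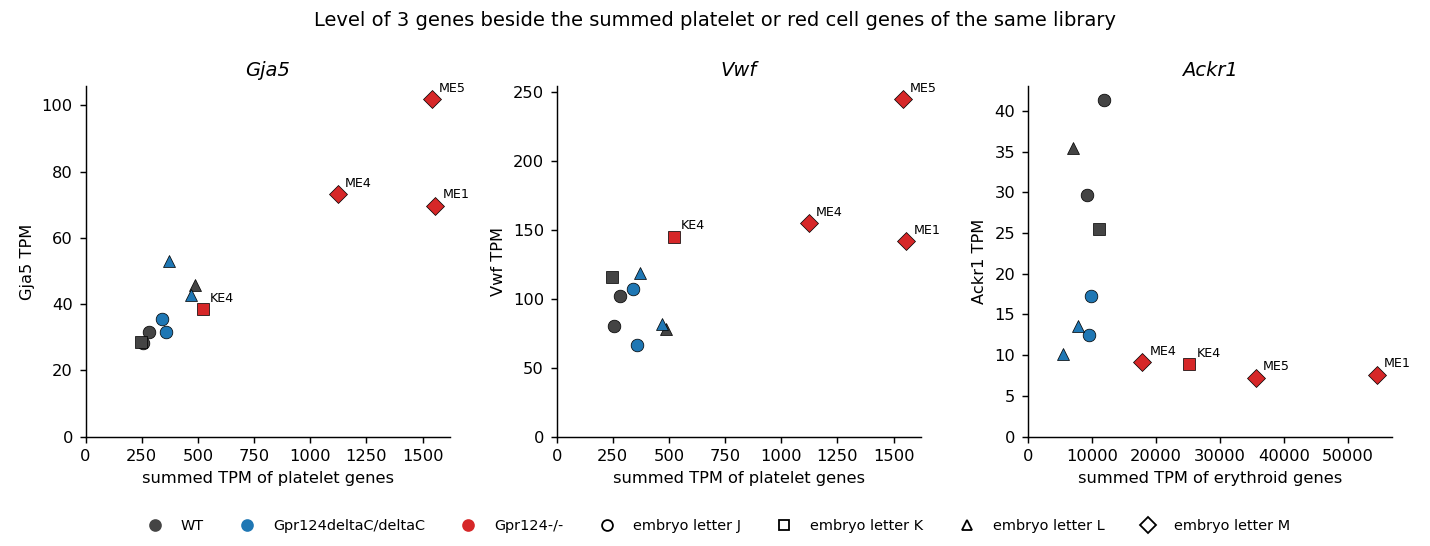
TPM of *Gja5*, *Vwf* and *Ackr1* (vertical axes) against the summed TPM of 7 platelet or 10 erythroid genes (horizontal axes) in the same library, with 1 point per library and the Gpr124-/- embryos named. KE4 sits at 521 TPM of platelet genes beside the WT and Gpr124deltaC/deltaC libraries for *Gja5* and above them for *Vwf*, and for *Ackr1* the 4 Gpr124-/- libraries are flat between 17841 and 54455 TPM of erythroid genes.

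The balance of the arterial connexins, taken as a ratio after both genes had been seen, differed between the genotypes in steps. *Gja4* exceeded *Gja5* by 36.5 ± 4.55 times in WT, by 19.4 ± 2.69 times in Gpr124deltaC/deltaC and by 10.9 ± 2.06 times in Gpr124-/- (mean ± SD of the TPM ratio, n = 4 each). Single libraries ran from 30.1 to 40.8, from 15.3 to 21 and from 8.71 to 13.6, with no overlap. The sum of both connexin transcripts was 1231 ± 145 TPM in WT, 811 ± 97 in Gpr124deltaC/deltaC and 806 ± 179 in Gpr124-/-. The sum was thus about equal in the mutants, and *Gja4* made up nearly all of it in every genotype. For the venous pair *Vwf* and *Ackr1* the corresponding ratio was 2.98 ± 1.07 in WT, 7.29 ± 2.93 in Gpr124deltaC/deltaC and 21.5 ± 8.35 in Gpr124-/-, again without overlap. These ratios are descriptions without a test.

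*Gkn3*, which encodes the secreted protein gastrokine 3 and is known in brain from arterial endothelium, had the widest spread in the mutants. It lies on chromosome 6 from 87383256 to 87388935, on the minus strand. Levels were 3.45, 5, 7.39 and 7.81 TPM in WT, 14.1, 7.48, 23 and 11.6 TPM in Gpr124deltaC/deltaC, and 5.66, 21.2, 10.5 and 31 TPM in Gpr124-/-, from 23 to 162 counts per library. Most mutant libraries were above the WT libraries, with JE4 and KE4 inside the WT range. The log2 fold change was 1.52 in Gpr124-/- (SE 0.50, 95% interval 0.43 to 2.61, adjusted p = 0.0505) and 1.17 in Gpr124deltaC/deltaC (SE 0.51, 0.08 to 2.27, adjusted p = 0.298). Neither passed the test. The first lies at the threshold, since it passed in 6 of 23 alternatives, with adjusted p from 0.0108 to 0.883, and turned to -0.43 when the label letter was a term. The SD was 66.3% of the mean in Gpr124-/-, against 34.8% in WT.

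*Bmx* encodes a cytoplasmic tyrosine kinase of arterial endothelium and lies on the X chromosome from 164192842 to 164258193, on the minus strand. Levels were 8.09, 8.9, 12.4 and 13.3 TPM in WT, 10.5, 15.4, 16.1 and 15.9 TPM in Gpr124deltaC/deltaC, and 9.73, 10.8, 13.7 and 12.5 TPM in Gpr124-/-. The Gpr124-/- libraries lay within or just above the WT range, and 3 of 4 Gpr124deltaC/deltaC libraries lay above it. The log2 fold change was 0.10 in Gpr124-/- (95% interval -0.27 to 0.46, adjusted p = 0.753) and 0.36 in Gpr124deltaC/deltaC (-0.01 to 0.72, adjusted p = 0.366). Both intervals leave out a 2-fold change.

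*Mgp* encodes matrix Gla protein, an inhibitor of calcification and of BMP signaling, and lies on chromosome 6 from 136872435 to 136875823, on the minus strand. Levels were 20.3, 12.6, 33.4 and 18.6 TPM in WT, 16.3, 27.1, 23.3 and 31.7 TPM in Gpr124deltaC/deltaC, and 18.9, 24.8, 19.7 and 41.5 TPM in Gpr124-/-. The genotypes overlapped throughout. The log2 fold change was 0.29 in Gpr124-/- (95% interval -0.37 to 0.96, adjusted p = 0.582) and 0.13 in Gpr124deltaC/deltaC (-0.54 to 0.80, adjusted p = 0.942), so that the intervals leave room for a rise of over 1.5-fold. KE8, the WT library with the most *Mgp*, also had the highest sum of 7 fibroblast genes, 68.8 TPM against a WT median of 14.4, and the part of this in *Mgp* was not tested.

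**Figure D3:**
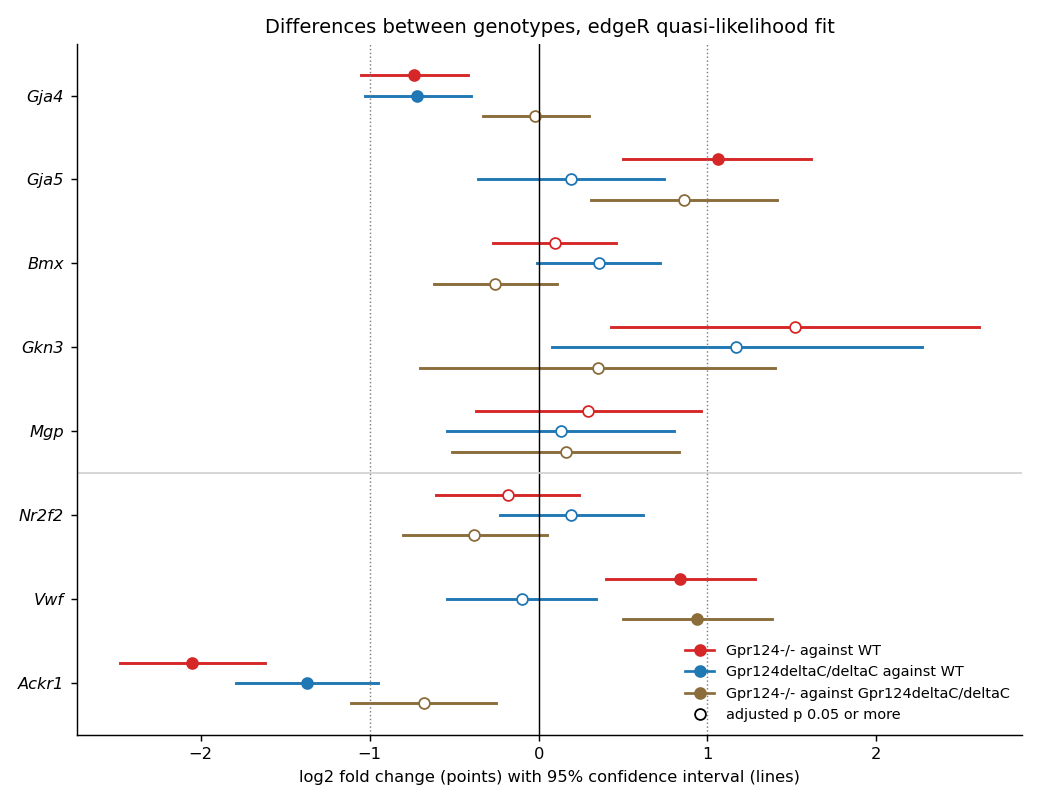
Log2 fold change (points, horizontal axis) with 95% confidence interval (lines) of the 8 genes in the 3 comparisons, with open points where the adjusted p was 0.05 or more and dotted lines at the threshold of 1 in either direction. *Ackr1* at -2.05 and -1.37 and *Gja5* at 1.06 are the values past both thresholds, and the intervals of *Nr2f2*, *Bmx* and *Mgp* against WT cross 0.

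Counts over the set use both thresholds, 0.05 for the adjusted p and 1 for the size of the log2 fold change, unless only the adjusted p is named. In Gpr124-/- against WT, 1 of the 8 was called higher (*Gja5*), where 5.67% of all tested genes were, and 1 was called lower (*Ackr1*), where 4.21% were. With the adjusted p alone, 4 of the 8 passed (*Gja4*, *Gja5*, *Vwf* and *Ackr1*), against 19.8% of all tested genes. In Gpr124deltaC/deltaC against WT, 0 were called higher and 1 lower (*Ackr1*), beside 0.89% and 1.03% of all tested genes (the unadjusted p was under 0.05 for 1 of the higher genes, *Gkn3*, and DESeq2 also called 0 higher), and 2 passed the adjusted p alone (*Gja4* and *Ackr1*), beside 4.09%. Between the mutants 0 were called in either direction by edgeR or DESeq2 (unadjusted p under 0.05 for *Gja5* and *Vwf*, higher in Gpr124-/-, and for *Ackr1*, lower), beside 2.67% higher and 1.94% lower, and 1 passed the adjusted p alone (*Vwf*), beside 8.82%. The comparisons of both mutants use the same 4 WT libraries, so that the values of the mutants are given side by side and their likeness is not a result.

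The 5 arterial genes had a median log2 fold change of 0.29 in Gpr124-/- and 0.19 in Gpr124deltaC/deltaC, and the 3 venous genes -0.18 and -0.10. Over all tested genes the medians were -0.01 and 0.01. In each set, genes that passed the adjusted p in Gpr124-/- lay on opposite sides of 0, *Gja4* below and *Gja5* above among arterial genes, and *Ackr1* below and *Vwf* above among venous genes.

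Of 27 other arterial genes, which included the Notch ligands and receptors *Dll4*, *Jag1*, *Notch1* and *Notch4*, their targets *Hey1* and *Hey2*, *Efnb2* and the SOX genes *Sox7*, *Sox17* and *Sox18*, all were tested. In Gpr124-/- against WT 2 were called higher, where 5.67% of all tested genes were, and 1 lower, where 4.21% were. In Gpr124-/-, *Clu*, which encodes the secreted chaperone clusterin, rose by 2.06 on the log2 scale (adjusted p = 7.46e-05), from a range of 22.6 to 28.5 TPM in WT to 59.6 to 157 TPM, and once the label letter was a term the value was 1.12 (adjusted p = 0.0482). *Igfbp3*, which encodes a binding protein of insulin-like growth factors, rose by 2.01 (adjusted p = 0.0148), from 97.7 to 298 TPM in WT to 397 to 1044 TPM. *Cxcl12*, which encodes the chemokine that CXCR4 binds, was at -1.77 (adjusted p = 2.97e-06), with 36.2 to 60.9 TPM in WT and 11.7 to 15.8 TPM in Gpr124-/-. With the adjusted p alone 8 were higher and 2 lower, where 19.8% of all tested genes passed, among them *Nrp1* at 0.72 (adjusted p = 0.00131) and *Sox7* at -0.72 (adjusted p = 1.05e-05). The other 24 were short of one or both thresholds, the median of the 27 was 0.43, and without KE4 the number called higher was 5 in place of 2. In Gpr124deltaC/deltaC 0 of the 27 were called by edgeR or DESeq2, beside 0.89% higher and 1.03% lower of all tested genes, and the median was -0.07. With the adjusted p alone 3 were lower, *Hey1* at -0.77 (adjusted p = 0.00409), *Sox7* at -0.47 (adjusted p = 0.00171) and *Cxcl12* at -0.91 (adjusted p = 0.00256), where 4.09% of all tested genes passed, and without LE5 1 was called lower. Between the mutants *Clu* and *Ltbp4*, which encodes a TGF-beta binding matrix protein, were called higher in Gpr124-/-, beside 2.67% of all tested genes. The count ran from 1 to 3 as single libraries were left out. With the label letter as a term it was 1, where 160 of all tested genes were called higher.

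Of 21 other venous genes 19 were tested. In Gpr124-/- against WT 5 were called higher, beside 5.67% of all tested genes, and 2 lower, beside 4.21%, with a median of 0.29. Once the label letter was a term, 3 were called higher and 3 lower, where 495 and 351 of all 16637 tested genes were. In the reported fit, with the adjusted p alone, 9 were higher and 4 lower, where 19.8% of all tested genes passed. *Slc38a5*, an amino acid transporter that is abundant in embryonic brain endothelium, was called lower in both mutants, at -5.17 in Gpr124-/- (adjusted p = 2.10e-06) and -2.02 in Gpr124deltaC/deltaC (adjusted p = 0.00495). Its levels ran from 2861 to 4271 TPM in WT, from 607 to 1335 TPM in Gpr124deltaC/deltaC and from 58.7 to 221 TPM in Gpr124-/-. As with *Ackr1*, the 3 ranges did not overlap. *Lrg1*, which encodes a secreted leucine-rich glycoprotein, rose in both mutants, by 2.52 in Gpr124-/- (adjusted p = 4.35e-07) and by 1.65 in Gpr124deltaC/deltaC (adjusted p = 9.43e-05), with 3.14 to 3.79 TPM in WT, 17.9 to 22.9 TPM in Gpr124-/- and 9.27 to 14.6 TPM in Gpr124deltaC/deltaC.

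*Ptgs1*, which encodes cyclooxygenase 1, rose by 1.09 in Gpr124deltaC/deltaC (adjusted p = 0.00208), from 9.64 to 16.8 TPM in WT to 21.5 to 37.5 TPM, and by 2.28 in Gpr124-/- (adjusted p = 1.50e-06), where it reached 52.5 to 76 TPM. *Ptgs1* is also expressed by platelets, whose part was not tested. *Ch25h* and the leukocyte adhesion gene *Sele* were called higher in Gpr124-/- from near 0 in WT. *Ch25h* ran from 0.113 to 1.12 TPM in WT and from 5 to 30.2 TPM in Gpr124-/- (adjusted p = 0.00045), and *Sele* from 0 to 0.157 and from 0.772 to 2.56 TPM (adjusted p = 0.00442), and both lost the call once the label letter was a term, where the fitted value of *Sele* was 4.15 in place of 4.28 (adjusted p = 0.257) and that of *Ch25h* 2.10 in place of 5.17 (adjusted p = 0.258). *Ctsc*, which encodes the protease cathepsin C, was called lower (-1.21, adjusted p = 0.000264), and *Emcn*, the endothelial sialomucin endomucin, completes the 5 called higher (1.26, adjusted p = 4.64e-07). In Gpr124deltaC/deltaC the counts were 2 higher and 1 lower, beside 0.89% and 1.03% of all tested genes, with a median of 0.34, and 1 higher without JE6, where *Ptgs1* no longer exceeded the threshold of 1. Between the mutants 2 were called higher in Gpr124-/- (*Ptgs1* and *Ch25h*), beside 2.67% of all tested genes. Another 2, among them *Slc38a5*, were called lower, beside 1.94%. The count of higher genes was 4 without LE2. With the label letter as a term it was 0, where 160 of all tested genes were called higher. *Emcn* and *Ltbp4* are named to complete the counts, and they, *Hey1*, *Sox7*, *Nrp1* and the cell type markers given with values were picked after their values were seen.

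**Figure D4:**
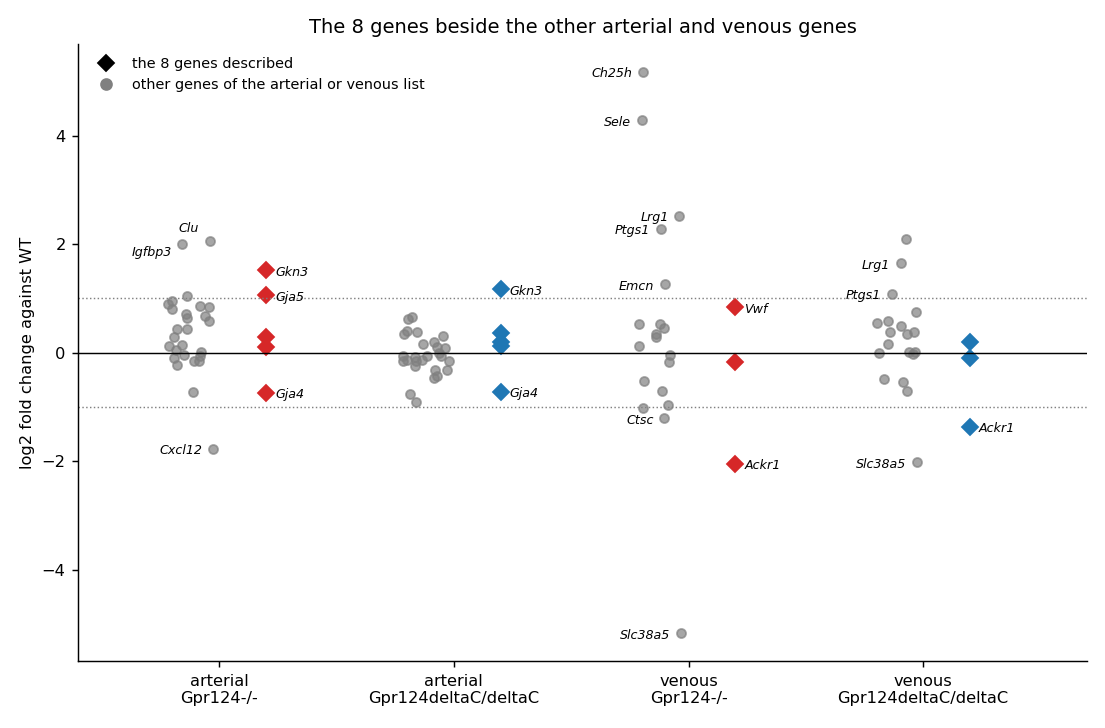
Log2 fold change against WT (vertical axis) of the 8 genes (diamonds) beside the other arterial and venous genes (grey points), separately for each mutant. Dotted lines mark the threshold of 1 in either direction, and grey points are named where called. Diamonds are named by the size of the fold change, so that *Gja4*, *Gkn3* and *Vwf* carry names without being called. *Ackr1* (-2.05) and *Slc38a5* (-5.17) are the lowest venous points in Gpr124-/-, and in Gpr124deltaC/deltaC all 27 other arterial points stay uncalled.

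The shape of each gene's pattern over the 12 libraries was compared with 9977 abundant genes by the mean absolute difference of standardized log2 CPM, where a smaller value is more alike and the median gene lies between 1.05 and 1.14. This is a description over libraries that share genotype, sort and depth. *Ackr1* was most like *Nkd1* (0.136), *Usp6nl* (0.147) and *Tpbg* (0.155), and *Nkd1* had mean TPM of 178 in WT, 32.6 in Gpr124deltaC/deltaC and 13.6 in Gpr124-/-. *Gja4* was most like *Dapk1* (0.197), *Mvk* (0.212) and *Slc25a10* (0.23). *Gja5* was most like *Fermt3* (0.142), *Tubb1* (0.165) and *Abca7* (0.17), and *Tubb1*, a tubulin gene known from platelets, had mean TPM of 83.8, 122 and 375. *Vwf* was most like *Pgam1* (0.268), *Actg1* (0.27) and *Gapdh* (0.278).

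Among the genes that did not pass the test, distances began at 0.277 for *Nr2f2*, next to those of *Vwf* (0.268 to 0.278). *Nr2f2* was nearest to *Gm37474* (0.277), *Serbp1* (0.297) and *Nucks1* (0.299), *Bmx* to *Arhgap17* (0.292), *Zfp790* (0.464) and *Fbxo25* (0.468), *Gkn3* to *Med20* (0.369), *Fnbp1* (0.386) and *Fam110b* (0.4), and *Mgp* to *Stk11ip* (0.426), *Nop16* (0.436) and *Mrpl16* (0.454). Among the 8 themselves, the closest pairs were *Gja4* with *Ackr1* (0.482), which joins an arterial to a venous gene, *Gja5* with *Gkn3* (0.544) and *Gja5* with *Vwf* (0.6). *Gkn3* with *Ackr1* and *Vwf* with *Ackr1* were the least alike, at 1.5 each. Of the 3 closest pairs, 1 joins genes with the same label.

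Single embryos also stood out within a genotype. In Gpr124-/-, KE4 had the lowest level of all 5 arterial genes, from 524 TPM for *Gja4* to 5.66 TPM for *Gkn3*, and the highest *Nr2f2*, at 16.2 TPM. ME5 had the highest *Gja4*, *Gja5*, *Gkn3*, *Mgp* and *Vwf* of its genotype and the lowest *Nr2f2* and *Ackr1*. KE4 carries another label letter than the other Gpr124-/- embryos, so that the letter and the embryo cannot be told apart. Because of this, the fit with the letter as a term estimates the Gpr124-/- difference from KE4 and KE8 alone.

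**Figure D5:**
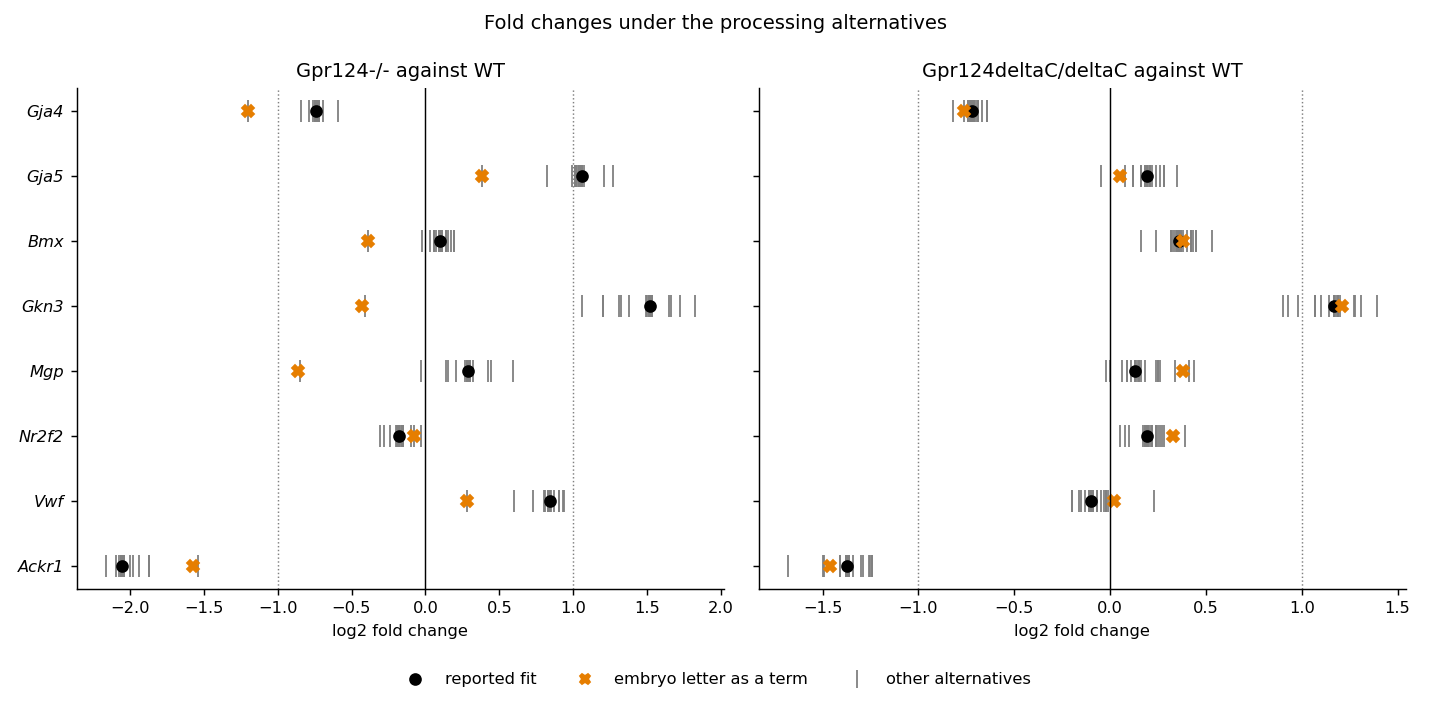
Log2 fold change (horizontal axis) of each gene in Gpr124-/- (left) and Gpr124deltaC/deltaC (right) against WT in the reported fit (circles), with the label letter as a term (crosses) and under the other alternatives (ticks), with dotted lines at the threshold of 1. In Gpr124-/- the crosses for *Gja5* (0.38), *Gkn3* (-0.43) and *Vwf* (0.28) lie with the tick of the pair within the letter K and away from the other ticks, and *Ackr1* stays below -1 in every alternative.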

How the data were processed

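RNA-seq of sorted E15.5 forebrain endothelial cells was analyzed in 12 libraries, 4 per genotype. Per the labels RNA was isolated with PicoPure and libraries were made with the SMART-Seq v4 ultra-low-input kit, and the study's methods add poly(A) selection and paired-end reads. The build per the labels is mm10 and bcl2fastq 2.17 is the tool named. The aligner, counting program and strand setting are not given in the sources used here. The authors deposited read counts per gene without normalization for each library, and a table of TPM, which the authors computed from the counts and gene lengths and which matched recomputed values to within 0.005%. Symbols came from GENCODE vM21, where 49056 of 49315 gene identifiers were found and 259 were not.

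Counts were fitted in R 4.3.3 with edgeR 4.0.16 (filterByExpr by genotype, TMM factors 0.946 to 1.04, glmQLFit and glmQLFTest) with all 12 libraries and genotype as the term. All 8 genes passed the filter, so no permutation test on TPM was needed. Libraries were taken as separate embryos from their labels, and litters are not given. The models were checked on simulated data.

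The 8 genes, the other lists and the marker lists were chosen with earlier results of these data known. Named genes were the 8, up to 3 called genes with the largest rise and fall per list and mutant, and the 3 genes most alike in pattern (among those with mean CPM of 8 or more, prior count 2).

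Alternatives were upper-quartile factors, no filter, a mean of at least 50 counts, DESeq2 1.42.0, the label letter as a term, only the compared genotypes, no fold-change threshold, limma 3.58.1 on log2(TPM + 1) and log2(TPM + 0.1) at a mean TPM of at least 1 and without that filter, and each library left out. Leaving out JE6 and JE3, TPM without *Gm23935* and the alternatives of the lists were added after seeing the data. Promoter sequences are from RefSeq.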

Additional observations from a re-analysis of the deposited data

Results flagged for a closer look

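*Vwf* in Gpr124-/- was set apart by 1 library: ME5, at 245 TPM, lay far above the others, at 142, 145 and 155 TPM. Without ME5 the log2 fold change against WT was 0.60. *Bmx* in Gpr124deltaC/deltaC had JE3 at 10.5 TPM below the others, at 15.4, 15.9 and 16.1 TPM, and JE3 is also the library in which *Gm23935* took 14.122% of TPM. Both came from a check of 24 groups of 4 libraries for a sample far from the rest, and chance sets aside about 1 in 20 such groups.

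The effect on *Vwf* differed between the mutants by 0.94 on the log2 scale (adjusted p = 0.0134, edgeR's quasi-likelihood test), with all 4 Gpr124-/- libraries above all 4 Gpr124deltaC/deltaC libraries. With the label letter as a term the difference was 0.26 (adjusted p = 0.964).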

How the results depend on the processing

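*Ackr1* was called lower in both mutants in 23 of 23 alternatives. Without a fold-change threshold, 4 genes in place of 2 passed in Gpr124-/- against WT, 2 in place of 1 in Gpr124deltaC/deltaC against WT, and 1 in place of 0 between the mutants. Leaving out single libraries gave 1 to 3 called genes in Gpr124-/- against WT, with 1 without KE8 (WT replicate 3) or ME5 (Gpr124-/- replicate 4), where *Gja5* was under the fold-change threshold. It gave 1 in every case in Gpr124deltaC/deltaC against WT and 0 to 2 between the mutants, with 2 without KE4 (*Gja5* at 1.08 and *Vwf* at 1.03) and 1 without JE4, LE2 or ME1. The label letter as a term turned *Bmx* to -0.39, *Gkn3* to -0.43 and *Mgp* to -0.86 in Gpr124-/- against WT, *Vwf* to 0.02 in Gpr124deltaC/deltaC, and *Gkn3* to -1.64 and *Mgp* to -1.25 between the mutants. This fit takes the Gpr124-/- difference from KE4 and KE8, and it also called *Gja4* in Gpr124-/- (-1.20, adjusted p = 0.00138). Single left-out libraries turned small values around 0: *Bmx* from -0.02 to 0.19 and *Mgp* from -0.03 to 0.59 in Gpr124-/-, *Mgp* from -0.02 to 0.41 in Gpr124deltaC/deltaC, and *Gja4* from -0.13 to 0.13, *Gkn3* from -0.12 to 0.65 and *Mgp* from -0.17 to 0.30 between the mutants. No fit was paired by replicate number, since these follow accession order, and the label letter was the grouping tried. With 4 embryos per genotype, intervals of *Gja5*, *Gkn3* and *Mgp* span over 1 log2 unit.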
